A study of Mus musculus with 18 samples.

Results

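Myc and 40 genes of ribosome biogenesis were followed in terminal bronchiolar epithelial cells of the mouse lung after naphthalene. The 41 genes were listed by name, with no threshold on the values but with earlier results of these data known. Of the 41, 40 had a probe set that carried only that gene's symbol, among 19938 genes measured in all; Noc2l, a partner of nucleolar assembly factors, had none and is only named here. Naphthalene is turned into a toxic product by the cytochrome P450 Cyp2f2 of club cells, the secretory cells of the small airways. The arrays held 6 groups of 3. All mice were a mixture of the FVB/N and C57BL/6 strains, and all were labelled as naphthalene injury. Genotype was either control or Cebpa d/d, where Cebpa is the gene of C/EBP alpha, a transcription factor. Total RNA was taken at 0, 3 or 72 hr in each genotype. The age of the mice, the promoter or cell type that drove the Cebpa d/d deletion, any allele that the control mice carried and whether an array held 1 or several animals are not stated in the labels used here. P-values therefore measure the spread between these arrays, which may be technical in part.

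Ribosomes are built mostly in the nucleolus. RNA polymerase I makes a long precursor of ribosomal RNA, small nucleolar ribonucleoproteins (snoRNPs) modify it, and large sets of assembly factors cut and fold it into the small and large subunits. Myc is a transcription factor that is induced as an immediate early gene when cells are stimulated, and genes for nucleolar proteins are among its best known targets. In airway epithelium the surviving club cells divide after naphthalene and restore the epithelium.

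Cebpa was read in each array as a check of the labels. On the log2 scale it ranged from 9.69 to 10.52 in 8 of 9 control arrays and from 7.83 to 9.07 in the Cebpa d/d arrays. The array labelled control 0 hr replicate 1 read 7.89 and so went against its label, and the highest Cebpa d/d array was 72 hr replicate 1, at 9.07. Counts of the gene set, and list counts that changed in a comparison holding the array, are also given without the array concerned. Xist and Eif2s3y marked 10 arrays as female, which were all 6 arrays at 72 hr and 1 of 3 in each earlier group. Scgb1a1 and Cyp2f2, which define club cells, had group means of 12.68 to 12.84 and 12.49 to 13.25. Sftpc of alveolar type 2 cells had group means of 13.03 to 13.23. Basal cell markers Trp63, Krt5, Krt14 and Ngfr stayed between 5.58 and 6.85. Cardiac muscle transcripts stood out in the Cebpa d/d arrays at 0 hr, where the mean of 10 such genes lay between 10.50 and 11.24, against 7.77 to 9.58 in control at 0 hr and 7.63 to 8.72 at 3 hr in either genotype. In such bulk samples fewer cells of a type and less RNA per cell cannot be told apart.

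Promoter sequence is shown for 4 of the genes. Myc works with its partner Max at the E-box CACGTG, which reads the same on both strands. A window from 250 bases before to 50 bases from the start site on was available from RefSeq (GRCm38.p6) for 34 of the 40 measured genes. The letters CACGTG were in the window of 10 of these 34 genes (29.4%), and in 8.09% of 27025 genes of the table. Member windows had a median GC content of 59.3%, against 52.7% in all windows. Each stretch runs 5′ to 3′ on the gene's strand, from 90 bases before the start site to 30 bases from it on, and capitals mark CACGTG. Wdr43 and Tsr1 are shown as the largest rises in control cells at 3 hr with the motif, Gnl3 as the largest rise without it among genes with a window, and Ncl as a textbook Myc target. The positions are chr17:71616125-71616244 on the plus strand for Wdr43, chr11:74897990-74898109 on the plus strand for Tsr1, chr14:31019102-31019221 on the minus strand for Gnl3 and chr1:86359426-86359545 on the minus strand for Ncl.
Wdr43: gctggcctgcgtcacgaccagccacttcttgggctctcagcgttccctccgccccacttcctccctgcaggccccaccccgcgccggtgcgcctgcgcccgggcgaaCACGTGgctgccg
Tsr1: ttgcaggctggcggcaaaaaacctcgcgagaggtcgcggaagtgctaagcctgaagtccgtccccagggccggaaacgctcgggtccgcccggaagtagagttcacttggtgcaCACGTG
Gnl3: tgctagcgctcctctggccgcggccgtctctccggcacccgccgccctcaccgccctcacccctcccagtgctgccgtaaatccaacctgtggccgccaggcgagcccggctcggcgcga
Ncl: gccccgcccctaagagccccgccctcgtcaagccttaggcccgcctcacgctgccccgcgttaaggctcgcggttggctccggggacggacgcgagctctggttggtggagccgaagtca

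In Wdr43 the motif began at base 18 and in Tsr1 at base 25, counted from the start site as base 1. Neither Gnl3 nor Ncl had it anywhere in the window. Among genes with a window, 7 of the 19 that rose at 3 hr in either genotype held CACGTG (36.8%), as did 3 of the 15 that did not pass (20.0%): Grwd1, Pes1 and Rrn3. With replicate 1 of control at 0 hr left out these shares were 6 of 17 (35.3%) and 4 of 17 (23.5%). The related letters CACGCG or CGCGTG were in 3 of those 19 (15.8%) and in 7 of those 15 (46.7%), and in 10.5% of all genes. A match in these letters is a description of sequence, not of binding.

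By 3 hr after naphthalene the gene set was higher in both genotypes. Myc was 6.74-fold higher than at 0 hr in control cells and 6.60-fold higher in Cebpa d/d cells. By role, 8 of 13 small subunit genes rose in each genotype, 5 of 8 snoRNP genes in control and 4 in Cebpa d/d cells, 2 and 3 of 9 large subunit genes, 3 and 2 of 5 nucleolar genes and 0 of 4 RNA polymerase I genes. Apart from Myc the rises that passed were about 1.3-fold to 2.7-fold. A gene is said to have passed, or to have risen or fallen, where limma gave a Benjamini-Hochberg adjusted p under 0.05 over all 19938 genes in that comparison. In control cells 19 of 40 genes rose and 0 fell, where 1.88% of all genes rose and 1.62% fell. In Cebpa d/d cells 18 of 40 rose and 0 fell, where 2.66% of all genes rose and 1.72% fell. Because the set was chosen with earlier results of these data known, these shares describe it and do not test it. The median difference of the 40 genes was 0.47 on the log2 scale in control and 0.45 in Cebpa d/d cells, and that of all genes was 0.03 and -0.02. Each of the 40 differences was above 0 in each genotype, from 0.07 to 2.75 in control and from 0.07 to 2.72 in Cebpa d/d cells, whereas 11317 and 9174 of 19938 genes lay above 0.

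The counts of both genotypes depended on which arrays were in the fit. Leaving out 1 array gave 12 of 40 for the array labelled control 0 hr replicate 1, 12 for replicate 3 of that group, 10 for replicate 2 at 3 hr and 11 for replicate 3 at 3 hr. It gave 2 (Myc and Gnl3) when only these 2 groups entered the fit. The Cebpa d/d count dropped to 11 when replicate 3 at 0 hr was left out, to 10 for replicate 1 at 3 hr and to 7 for replicate 3 at 3 hr. The 12 genes left with replicate 1 of control at 0 hr left out were Myc, 4 snoRNP, 4 small subunit, 1 large subunit and 2 nucleolar genes. In that fit 1.14% of all genes rose, against 1.88% with all arrays. For the other fits the share of all genes is not given here. Without both arrays that stood apart in Cebpa the counts were 13 in control and 18 in Cebpa d/d cells.

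**Figure D1:**
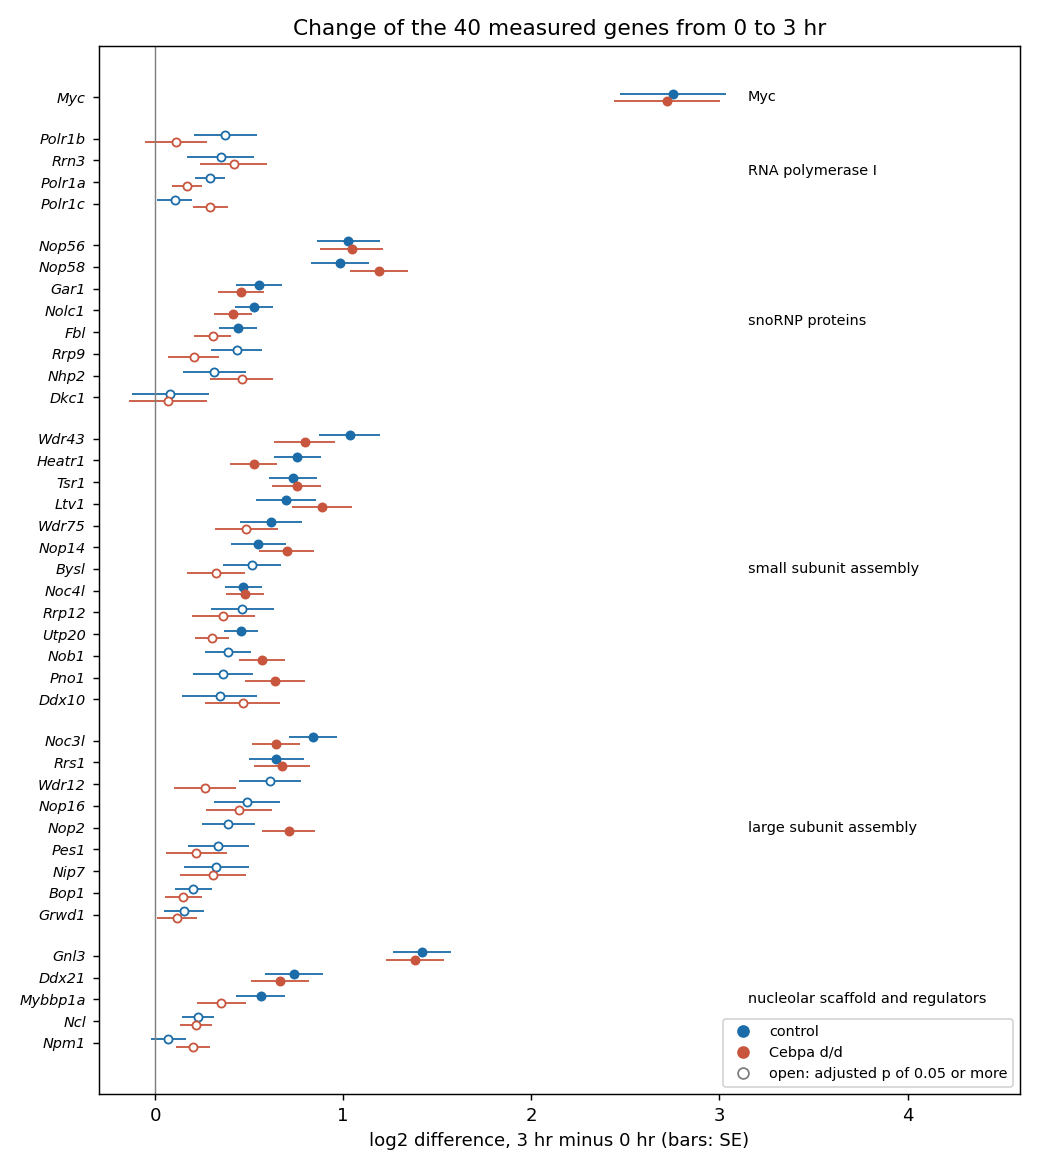
Log2 difference between 3 hr and 0 hr (horizontal axis, bars are the SE) for each of the 40 measured genes, grouped by role, in control cells (blue) and Cebpa d/d cells (red), with filled points at an adjusted p under 0.05. All points lie right of 0, Myc lies farthest right at 2.75 and 2.72, and the 4 RNA polymerase I genes have open points only.

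Myc itself gave the widest change. In control cells it read 7.61, 7.34 and 7.33 at 0 hr, 9.76, 10.35 and 10.43 at 3 hr, and 8.10, 8.95 and 8.64 at 72 hr. Myc in Cebpa d/d cells read 8.04, 7.15 and 7.26 at 0 hr, 10.15, 10.04 and 10.43 at 3 hr, and 7.38, 8.46 and 8.24 at 72 hr. Every 3 hr array was above every 0 hr and 72 hr array of its genotype. The rise at 3 hr was 2.75 ± 0.28 (SE, 3 arrays against 3) in control cells (adjusted p = 5.48e-05) and 2.72 ± 0.28 in Cebpa d/d cells (adjusted p = 2.44e-05). The mean of the cardiac muscle genes in these 0 hr arrays, in the same order, was 9.07, 9.58 and 7.77 in control and 11.24, 11.01 and 10.50 in Cebpa d/d cells, and its part in the Myc values was not tested. Among 13 genes of the Myc network (the paralogues Mycn and Mycl, the partner Max, the Mxd, Mxi1, Mnt and Mga factors, the parallel Mlx branch and Zbtb17), 0 rose at 3 hr in either genotype (2 had an unadjusted p under 0.05 in limma in each), with median differences of 0.05 and 0.01, and Mxi1, a Myc antagonist, fell by 0.40 ± 0.10 in control cells (adjusted p = 0.0407), a call lost with replicate 1 of control at 0 hr left out.

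**Figure D2:**
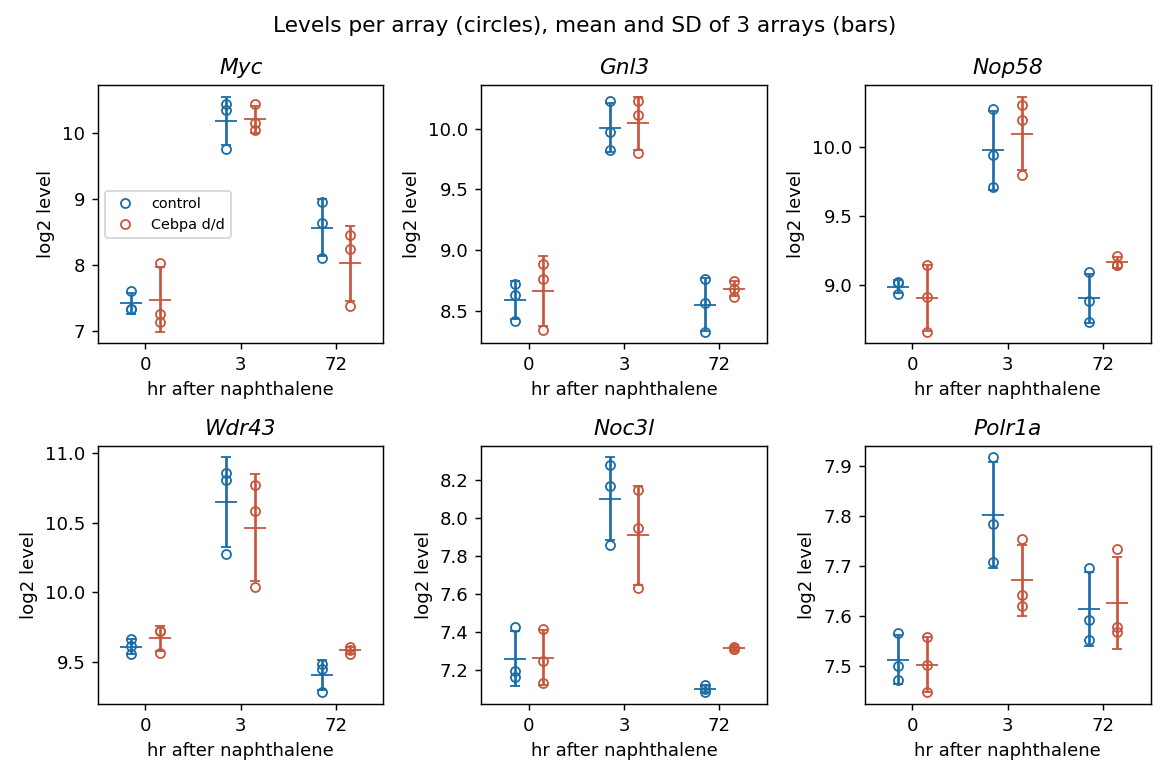
Log2 level in each array (circles) with the mean and SD of 3 arrays (bars) at 0, 3 and 72 hr for Myc and 5 genes of ribosome biogenesis in control (blue) and Cebpa d/d (red) cells; each panel has its own vertical scale. Myc, Gnl3, Nop58, Wdr43 and Noc3l are highest at 3 hr in every array of both genotypes, and Polr1a, a polymerase gene, spans only 7.45 to 7.92.

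The nucleolar regulators held the next widest change. Gnl3 encodes nucleostemin, a nucleolar GTPase abundant in dividing and stem cells. In control cells Gnl3 read 8.72, 8.41 and 8.63 at 0 hr, 9.83, 10.22 and 9.97 at 3 hr, and 8.32, 8.56 and 8.76 at 72 hr. Gnl3 in Cebpa d/d cells read 8.88, 8.76 and 8.34 at 0 hr, 10.11, 9.80 and 10.22 at 3 hr, and 8.74, 8.68 and 8.62 at 72 hr. The 3 hr arrays stood clear of all others, and the 0 hr and 72 hr arrays overlapped. Gnl3 rose by 1.42 ± 0.15 in control (adjusted p = 7.3e-05) and by 1.38 ± 0.15 in Cebpa d/d cells, or 2.67-fold and 2.61-fold. Ddx21, an RNA helicase of the nucleolus, read 8.36, 8.20 and 8.60 at 0 hr, 8.97, 9.29 and 9.11 at 3 hr, and 8.04, 8.21 and 8.35 at 72 hr in control cells. Its Cebpa d/d arrays read 8.52, 8.42 and 8.18, then 9.21, 8.70 and 9.21, then 8.02, 8.37 and 8.17. Again the 3 hr groups did not overlap the others, with rises of 0.74 ± 0.15 (adjusted p = 0.0154) and 0.66 ± 0.15 (adjusted p = 0.0185). Mybbp1a, a Myb-binding protein of the nucleolus, read 7.28, 7.00 and 7.31 in control cells at 0 hr, 7.54, 7.97 and 7.77 at 3 hr, and 7.17, 7.01 and 6.86 at 72 hr. Mybbp1a in Cebpa d/d cells read 7.26, 7.31 and 7.08, then 7.79, 7.33 and 7.58, then 7.07, 7.08 and 7.02. It rose in control cells, by 0.56 ± 0.13 (adjusted p = 0.0271), and differed by 0.35 ± 0.13 in Cebpa d/d cells (adjusted p = 0.157). The abundant scaffold proteins nucleolin (Ncl) and nucleophosmin (Npm1) did not pass at 3 hr: Ncl differed by 0.23 in control and 0.22 in Cebpa d/d cells, and Npm1 by 0.07 and 0.20. For Npm1, 3 further probe sets that list it together with Gm15484 were not used.

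Of 8 snoRNP proteins, 5 rose in control (Nop56, Nop58, Gar1, Nolc1 and Fbl) and 4 in Cebpa d/d cells (the same without Fbl). Nop56 and Nop58 form the core of the box C/D particle, in which fibrillarin (Fbl) methylates the RNA. In control cells Nop58 read 9.02, 8.94 and 9.02 at 0 hr, 9.71, 10.27 and 9.94 at 3 hr, and 8.74, 8.88 and 9.09 at 72 hr. Nop58 in Cebpa d/d cells read 9.15, 8.92 and 8.66 at 0 hr, 10.20, 9.80 and 10.30 at 3 hr, and 9.14, 9.22 and 9.15 at 72 hr. All 3 hr arrays were higher than all others, by a mean of 0.98 ± 0.15 over 0 hr in control (adjusted p = 0.00228) and 1.19 ± 0.15 in Cebpa d/d cells (adjusted p = 0.000198). Nop56 read 8.90, 8.63 and 8.63 in control at 0 hr, 9.34, 10.01 and 9.90 at 3 hr, and 8.67, 8.82 and 8.83 at 72 hr. Nop56 in Cebpa d/d cells read 8.85, 8.57 and 8.67, then 9.80, 9.49 and 9.93, then 8.88, 8.90 and 9.36. Its rises were 1.03 ± 0.17 (adjusted p = 0.00369) and 1.05 ± 0.17 (adjusted p = 0.00159), and no 3 hr array overlapped another time of its genotype. Nolc1, a chaperone of snoRNPs, read 8.24, 8.35 and 8.35 in control at 0 hr, 8.65, 9.09 and 8.77 at 3 hr, and 8.10, 8.11 and 8.21 at 72 hr. Nolc1 in Cebpa d/d cells read 8.41, 8.47 and 8.28, then 8.85, 8.72 and 8.84, then 8.36, 8.33 and 8.18. Nolc1 rose by 0.53 ± 0.10 (adjusted p = 0.0103) and 0.41 ± 0.10 (adjusted p = 0.0265). Among the box H/ACA proteins, which serve pseudouridylation, Gar1 rose by 0.55 and 0.46, while Dkc1, the pseudouridine synthase, differed by 0.08 and 0.07 and Nhp2 by 0.31 and 0.46 without passing. A second probe set of Fbl went from 7.27 ± 0.14 (SD, n = 3) to 7.68 ± 0.08 in control and from 7.29 ± 0.04 to 7.53 ± 0.11 in Cebpa d/d cells, where the one used for the test went from 9.40 to 9.84 and from 9.38 to 9.69.

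Of 13 small subunit genes, the largest of the role lists, 8 rose in each genotype. Wdr43 (the UTP5 homolog) and Heatr1 (the UTP10 homolog) belong to the first complex that binds the ribosomal RNA precursor. Wdr43 read 9.62, 9.55 and 9.66 in control at 0 hr, 10.27, 10.81 and 10.86 at 3 hr, and 9.28, 9.49 and 9.45 at 72 hr. Wdr43 in Cebpa d/d cells read 9.72, 9.72 and 9.56, then 10.58, 10.04 and 10.77, then 9.59, 9.56 and 9.61. The 3 hr groups stood clear of the others, with rises of 1.04 ± 0.16 (adjusted p = 0.00227) and 0.80 ± 0.16 (adjusted p = 0.00863). Tsr1, a GTPase-like factor of late small subunit maturation, read 8.61, 8.30 and 8.41 in control at 0 hr, 8.97, 9.41 and 9.15 at 3 hr, and 8.13, 8.37 and 8.22 at 72 hr. Tsr1 in Cebpa d/d cells read 8.24, 8.51 and 8.21, then 9.26, 8.85 and 9.11, then 8.47, 8.41 and 8.47. Tsr1 rose by 0.73 ± 0.13 (adjusted p = 0.00616) and 0.75 ± 0.13 (adjusted p = 0.00246). Ltv1, a factor for nuclear export of the small subunit, read 8.10, 7.90 and 8.0 in control at 0 hr, 8.59, 8.81 and 8.68 at 3 hr, and 7.93, 8.27 and 8.09 at 72 hr. Ltv1 in Cebpa d/d cells read 8.01, 8.11 and 7.35, then 8.83, 8.47 and 8.84, then 8.02, 8.15 and 8.05, so that replicate 3 at 0 hr was the lowest of all. It rose by 0.70 ± 0.16 (adjusted p = 0.0261) and 0.89 ± 0.16 (adjusted p = 0.00359). Heatr1 rose by 0.76 and 0.53, Nop14 by 0.55 and 0.70, and Noc4l by 0.47 and 0.48. Utp20 rose in control cells by 0.46 ± 0.09 (adjusted p = 0.0123), and differed by 0.30 ± 0.09 in Cebpa d/d cells (adjusted p = 0.07). Nob1, the nuclease that makes the mature end of 18S RNA, and its partner Pno1 rose in Cebpa d/d cells, by 0.57 and 0.64, and differed by 0.39 and 0.36 in control cells without passing. Wdr75 passed in control cells (0.62, adjusted p = 0.0499) and not in Cebpa d/d cells (0.49, adjusted p = 0.12). Bysl, Rrp12 and Ddx10 passed in neither genotype.

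For large subunit assembly 2 of 9 genes rose in control (Noc3l and Rrs1) and 3 of 9 in Cebpa d/d cells (the same and Nop2). Noc3l, which moves early large subunits through the nucleus, read 7.43, 7.16 and 7.20 in control at 0 hr, 7.86, 8.28 and 8.17 at 3 hr, and 7.10, 7.12 and 7.08 at 72 hr. Noc3l in Cebpa d/d cells read 7.25, 7.42 and 7.13, then 7.95, 7.63 and 8.15, then 7.31, 7.32 and 7.31. Its 3 hr arrays exceeded all others, by 0.84 ± 0.13 over 0 hr in control (adjusted p = 0.0018) and 0.64 ± 0.13 in Cebpa d/d cells (adjusted p = 0.00751). Rrs1, which brings the 5S RNA particle into the subunit, read 8.68, 8.41 and 8.76 in control at 0 hr, 9.18, 9.59 and 9.02 at 3 hr, and 8.78, 8.97 and 8.96 at 72 hr. Rrs1 in Cebpa d/d cells read 8.80, 8.54 and 8.33, then 9.31, 9.13 and 9.26, then 8.74, 9.02 and 8.71. Rrs1 rose by 0.65 ± 0.15 (adjusted p = 0.0254) and 0.67 ± 0.15 (adjusted p = 0.0141). Nop2, a methyltransferase of 28S RNA, read 7.59, 7.53 and 7.38 in control at 0 hr, 7.69, 8.17 and 7.81 at 3 hr, and 7.18, 7.22 and 7.53 at 72 hr. Nop2 in Cebpa d/d cells read 6.95, 7.43 and 7.18, then 7.94, 7.84 and 7.90, then 7.21, 7.48 and 7.18. Nop2 rose in Cebpa d/d cells by 0.71 ± 0.14 (adjusted p = 0.00753) and differed by 0.39 ± 0.14 in control cells; the difference between these changes was 0.32, with a 95% interval of -0.10 to 0.74. Bop1, Pes1 and Wdr12, which form the PeBoW complex, passed in neither genotype. For Wdr12 the values were 0.61 in control (adjusted p = 0.0511) and 0.27 in Cebpa d/d cells, and its second probe set went from 7.53 ± 0.33 (SD, n = 3) to 8.18 ± 0.19 in control. Nop16, Grwd1 and Nip7 did not pass either.

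RNA polymerase I makes the precursor on which the other factors work. Of its 4 genes 0 passed at 3 hr in either genotype in limma, with 2 of 4 at an unadjusted p under 0.05 in each. Polr1a, the largest subunit, read 7.57, 7.50 and 7.47 in control at 0 hr, 7.71, 7.78 and 7.92 at 3 hr, and 7.70, 7.55 and 7.59 at 72 hr. Polr1a in Cebpa d/d cells read 7.56, 7.50 and 7.45, then 7.75, 7.62 and 7.64, then 7.73, 7.58 and 7.57. All 3 hr arrays lay above the 0 hr arrays of their genotype, with differences of 0.29 ± 0.08 (adjusted p = 0.0574) and 0.17. Polr1b, the second largest subunit, read 7.17, 6.62 and 6.68 in control at 0 hr, 7.06, 7.47 and 7.06 at 3 hr, and 6.59, 6.86 and 6.94 at 72 hr. Polr1b in Cebpa d/d cells read 6.90, 6.56 and 7.01, then 7.00, 6.80 and 7.00, then 6.72, 6.42 and 6.85, and its 0 and 3 hr arrays overlapped in both genotypes. Rrn3, the factor that brings the polymerase to its promoter, read 9.28, 8.69 and 8.91 in control at 0 hr, 9.13, 9.76 and 9.03 at 3 hr, and 9.08, 9.28 and 9.18 at 72 hr. Rrn3 in Cebpa d/d cells read 9.13, 9.11 and 8.87, then 9.50, 9.40 and 9.48, then 8.84, 9.36 and 9.18. Its 0 and 3 hr arrays overlapped in control and did not in Cebpa d/d cells. Polr1c, a subunit shared by RNA polymerases I and III, read 9.82, 9.74 and 9.65 in control at 0 hr, 9.71, 9.94 and 9.87 at 3 hr, and 10.11, 10.07 and 9.86 at 72 hr. Polr1c in Cebpa d/d cells read 9.49, 9.42 and 9.57, then 9.93, 9.72 and 9.72, then 9.96, 9.96 and 9.85. Its mean was highest at 72 hr, where it passed in Cebpa d/d cells.

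The genes that rose overlapped between the genotypes, which share no arrays but share the estimate of each gene's spread from the common fit. The lists are therefore not independent, and the overlap among all genes that rose was not counted. Of the 19 genes in control and 18 in Cebpa d/d cells, 15 were shared, which is 78.9% and 83.3% of the lists. They were Myc, the nucleolar Gnl3 and Ddx21, the snoRNP genes Nop56, Nop58, Gar1 and Nolc1, the small subunit genes Wdr43, Heatr1, Tsr1, Ltv1, Nop14 and Noc4l, and the large subunit genes Noc3l and Rrs1. Fbl, Mybbp1a, Utp20 and Wdr75 passed in control cells alone and Nob1, Nop2 and Pno1 in Cebpa d/d cells alone, and none of these had a change that differed between genotypes by its own test. The remaining 18 passed in neither. With replicate 1 of control at 0 hr left out the lists held 12 and 18 genes and shared 11, which is 91.7% and 61.1% of them.

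Other genes of the same pathway were read from 11 lists (the plot of genes that rose by list). Of 41 further genes of the small subunit processome, 6 rose in control and 5 in Cebpa d/d cells and 0 fell, with median differences of 0.25 and 0.26. Riok2, a kinase of late small subunit maturation, rose by 0.80 ± 0.15 and 1.05 ± 0.15, Mphosph10 by 0.60 and 0.70, and Utp4 by 0.93 and 0.80. Of 43 further genes of large subunit assembly, 10 rose in control and 12 in Cebpa d/d cells, with medians of 0.39 and 0.27 and 0 that fell. Mdn1, the giant ATPase that strips factors from the pre-60S particle, rose by 0.82 ± 0.10 and 0.63 ± 0.10, Mrto4 by 0.82 and 0.80 and the GTPase Gtpbp4 by 0.77 and 0.89. In the list of 9 snoRNP assembly genes 1 rose in each genotype, Nol9 by 0.47 in control and Nufip1 by 0.60 in Cebpa d/d cells. Of 16 other polymerase I genes and factors 1 rose in control cells (Cd3eap, by 0.54 ± 0.11) and 0 in Cebpa d/d cells, with 4 and 6 at an unadjusted p under 0.05 in limma. RNA polymerase III genes passed in neither genotype (0 of 12, with 3 at an unadjusted p under 0.05 in each).

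**Figure D3:**
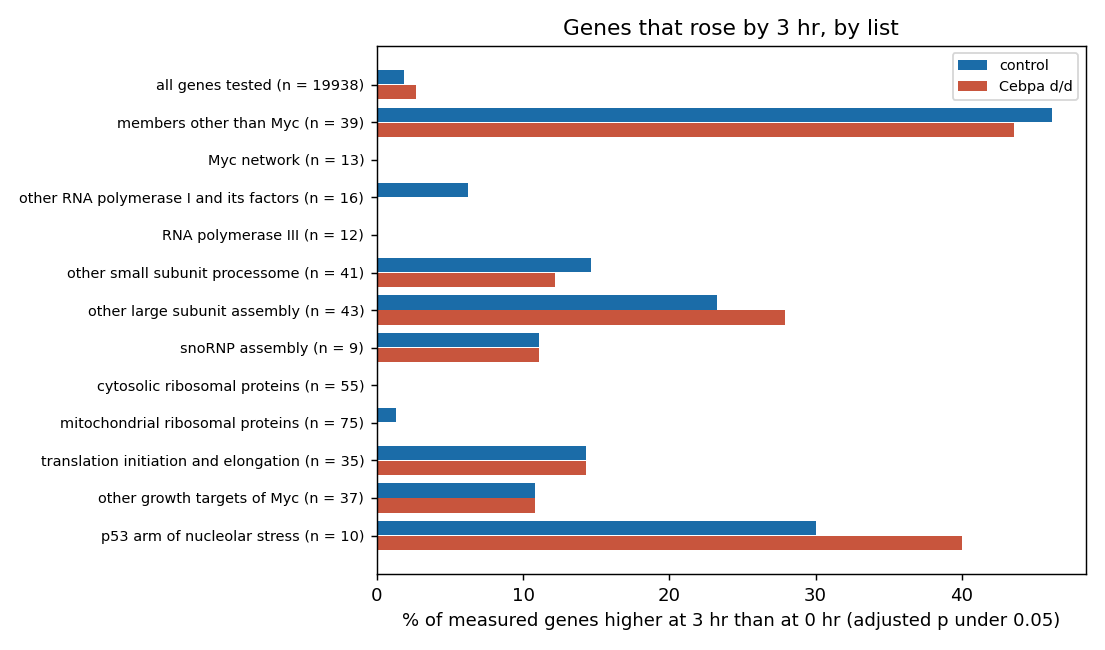
Percent of the measured genes of each list (n in brackets) that were higher at 3 hr than at 0 hr at an adjusted p under 0.05, in control (blue) and Cebpa d/d (red) cells. Among all genes tested the share was 1.88% and 2.66%; the Myc network, RNA polymerase III and cytosolic ribosomal proteins have no bar because 0 genes rose.

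The lists also held the proteins of the ribosome itself and the factors that drive translation. Of 55 measured cytosolic ribosomal protein genes 0 passed at 3 hr in either genotype (4 and 5 at an unadjusted p under 0.05 in limma), with medians of -0.01 and 0.06; the list has 79 genes, and near-identical copies of these genes share probes. Mitochondrial ribosomal proteins had 1 of 75 higher in control (Mrps22, by 0.60) and 1 of 75 lower in Cebpa d/d cells (Mrpl42, by 0.54). Among 35 translation factors the same number, 5, rose in each genotype: Eif5, Eif2s2, Eif4a1, Eif1a and the inhibitor Eif4ebp1. Eif5 rose by 0.55 ± 0.08 and 0.54 ± 0.08, Eif2s2 by 0.74 and 0.86, and Eif4a1, the helicase that opens the mRNA, by 0.71 and 0.73. Of 37 other growth genes known as Myc targets, 4 rose in each genotype. Slc7a5 and Slc3a2, which pair as a transporter of large neutral amino acids, rose by 2.28 ± 0.19 and 1.88 ± 0.19 and by 0.98 ± 0.16 and 1.12 ± 0.16, while Hk2, a hexokinase, and Nme1 rose in control cells and E2f3 and Pcna in Cebpa d/d cells. Of 10 genes of the p53 arm of nucleolar stress, 3 rose and 2 fell in control and 4 rose and 0 fell in Cebpa d/d cells. Plk3 rose by 1.57 ± 0.20 and 2.12 ± 0.20, Gadd45a by 1.25 ± 0.16 and 1.53 ± 0.16, and Sesn2 by 0.91 ± 0.13 and 1.07 ± 0.13. Plk3, Gadd45a and Sesn2 are also known as general stress genes. Mdm2 rose in Cebpa d/d cells, by 0.71 ± 0.12 (adjusted p = 0.00197), and did not pass in control cells. Trp53, Cdkn1a and Bax, also of this arm, were not measured. Ccng1 and Sesn1 were the genes of this list that fell in control, by 0.60 ± 0.13 and 0.55 ± 0.15. With replicate 1 of control at 0 hr left out, the control counts that rose were 3 of 41 small subunit processome, 8 of 43 large subunit, 0 of 9 snoRNP assembly, 2 of 16 polymerase I, 0 of 75 mitochondrial ribosomal protein and 3 of 37 growth genes, and 0 of 10 genes of the p53 arm fell.

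Markers of other cells moved in the same comparison. Of the 10 cardiac genes 0 passed in control (7 at an unadjusted p under 0.05 in limma) and 10 fell in Cebpa d/d cells, with a median of -2.85. Of 6 endothelial genes 2 fell in control and 1 in Cebpa d/d cells, and the array means of the list went from 9.37 to 9.70 at 0 hr down to 8.75 to 9.22 at 3 hr in control, and from 9.39 to 9.61 down to 8.80 to 9.05 in Cebpa d/d cells. Smooth muscle (2 of 6), fibroblast (1 of 6), ciliated cell (1 of 10) and alveolar type 2 (1 of 8) genes fell in control cells, and alveolar type 1 genes (1 of 6) in each genotype. With replicate 1 of control at 0 hr left out, control cells had 1 of 6 endothelial and 1 of 6 alveolar type 1 genes that fell, and 0 in the other lists just named.

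Club cell genes passed in neither genotype at 3 hr (0 of 8, with 3 at an unadjusted p under 0.05 in limma in each). The array means of that list were 10.83 to 11.19 at 0 hr and 10.63 to 11.05 at 3 hr in control, and 11.08 to 11.10 and 10.65 to 11.09 in Cebpa d/d cells. Scgb3a1, a secretoglobin of airway secretory cells, had group means of 9.84 at 0 hr and 8.0 at 3 hr in control, and 10.96 and 8.82 in Cebpa d/d cells. Scgb3a2 and Cckar also had lower means at 3 hr in both genotypes. Krt7 and Upk3a had higher means in both, Krt7 with 9.80 and 10.36 in control and 9.63 and 10.14 in Cebpa d/d cells. For Scgb1a1, Cyp2f2 and Aldh1a1 the mean was lower at 3 hr in control and higher in Cebpa d/d cells. Macrophage genes passed in neither (0 of 6, with 1 at an unadjusted p under 0.05 in each). The macrophage marker Cd68 had means of 7.92 and 8.86 in control and 8.12 and 8.75 in Cebpa d/d cells. Mrc1 also had a higher mean at 3 hr in both genotypes. The other genes of that list, Marco, Adgre1, Csf1r and Chil3, had lower means in both, such as 7.18 and 6.70 for Chil3 in control. Neutrophil genes passed in neither (0 of 6, with 1 at an unadjusted p under 0.05 in control in limma); their array means were 6.30 to 7.04 at 0 hr and 6.31, 7.95 and 8.15 at 3 hr in control, ordered by value, and 6.44 to 6.98 and 6.44 to 7.37 in Cebpa d/d cells. Basal cell (0 of 4) and lymphocyte (0 of 6) genes did not pass either. The part of all these markers in the rise of the ribosome biogenesis genes was not tested.

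At 72 hr most of the gene set was back near its 0 hr level. In control cells 3 of 40 genes were higher than at 0 hr and 0 lower, where 4.95% of all genes were higher and 2.2% lower: Noc4l (0.41 ± 0.10, adjusted p = 0.0201), Myc (1.14 ± 0.28, adjusted p = 0.0219) and Nhp2 (0.58 ± 0.17, adjusted p = 0.0453). In Cebpa d/d cells 2 of 40 were higher and 0 lower, where 3.39% of all genes were higher and 1.42% lower: Polr1c (0.43 ± 0.09, adjusted p = 0.0122) and Noc4l (0.46 ± 0.10, adjusted p = 0.0122). These shares are close to those of all genes. The median difference of the 40 genes was -0.03 in control and 0.08 in Cebpa d/d cells. Noc4l, which works with Nop14 in the small subunit processome, was high at both later times: it read 6.69, 6.81 and 6.60 in control at 0 hr, 7.13, 7.32 and 7.07 at 3 hr, and 7.24, 7.03 and 7.06 at 72 hr. Noc4l in Cebpa d/d cells read 6.51, 6.72 and 6.56, then 7.20, 6.91 and 7.12, then 7.03, 7.12 and 7.01. No array at 3 or 72 hr reached down to the 0 hr arrays of its genotype. Nhp2 in Cebpa d/d cells had a difference of similar size, 0.59 ± 0.17, that missed the threshold (adjusted p = 0.055). Myc at 72 hr was 2.20-fold its 0 hr level in control, with groups that did not overlap, and 1.46-fold in Cebpa d/d cells (adjusted p = 0.342), where replicate 1 at 72 hr, at 7.38, lay within the 0 hr arrays.

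Cell markers at 72 hr differed from 0 hr as well: endothelial genes were lower in 4 of 6 in control and 2 of 6 in Cebpa d/d cells, cardiac genes in 0 of 10 and 9 of 10, macrophage genes were higher in 3 of 6 and 0 of 6 and ciliated cell genes in 1 of 10 and 5 of 10, and their part in these values was not tested. With replicate 1 of control at 0 hr left out the control counts were 2 endothelial and 2 macrophage genes, and without Cebpa d/d 72 hr replicate 1 the Cebpa d/d counts were 3 endothelial, 2 macrophage and 4 ciliated cell genes. Club cell array means were 10.83 to 11.19 at 0 hr and 10.57 to 10.74 at 72 hr in control. In Cebpa d/d cells they were 11.08 to 11.10 and 10.61 to 10.99. Scgb3a1, Scgb3a2, Cyp2f2, Cckar and Aldh1a1 had lower means at 72 hr in both genotypes, and Krt7 and Upk3a higher means. Scgb1a1 was higher in control and lower in Cebpa d/d cells. The part of these club cell genes in the gene set was not tested.

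The counts of the gene set stayed at 3 in control with replicate 1 of control at 0 hr left out and at 2 in Cebpa d/d cells without 72 hr replicate 1. Each of these late gene calls was lost without some single array. In control 1 gene was left when 0 hr replicate 2, 72 hr replicate 1 or 72 hr replicate 2 was taken out, and 0 when 0 hr replicate 3 was. In Cebpa d/d cells 1 gene was left when 0 hr replicate 1 or 2 was taken out, and 0 when 72 hr replicate 2 was. All arrays at 72 hr were female, and with sex in the fit Myc in control was 1.02 higher (adjusted p = 0.0908). Its adjusted p with all arrays, 0.0219, was 0.0741 when control 0 hr replicate 2 was left out, 0.0700 for replicate 3 of that group, and 0.119 and 0.0713 for replicates 2 and 3 at 72 hr.

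Between 3 and 72 hr the gene set fell. In control cells 25 of 40 genes fell and 0 rose, where 8.57% of all genes fell and 11.2% rose. In Cebpa d/d cells 20 of 40 fell and 0 rose, where 3.67% of all genes fell and 4.88% rose. The median difference was -0.54 in control, against -0.07 for all genes, and -0.36 in Cebpa d/d cells, against 0 for all genes. This comparison uses the same 3 hr arrays as the rise, so it is not a separate sign of it. By role, 10 of 13 small subunit genes, 6 of 8 snoRNP genes, 4 of 9 large subunit genes, 4 of 5 nucleolar genes and Myc fell in control, and 8, 4, 3 and 4 of them and Myc in Cebpa d/d cells; 0 of 4 polymerase I genes fell in either. The lists shared 19 genes, 76.0% of the control list and 95.0% of the Cebpa d/d list, and they too share the estimate of each gene's spread. The overlap among all genes that fell was not counted. Without Cebpa d/d 72 hr replicate 1 the lists held 25 and 14 genes and shared 14, which is 56.0% of the former and all of the latter.

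Gnl3 fell by 1.46 in control (adjusted p = 2.02e-05) and by 1.37 in Cebpa d/d cells (adjusted p = 4.68e-05). Myc fell by 1.61 in control (adjusted p = 0.00101) and fell by 2.18 in Cebpa d/d cells (adjusted p = 0.000164). In control cells Wdr43 fell by 1.24, Nop58 by 1.07, Noc3l by 0.999, Nop56 by 0.97, Tsr1 by 0.94, Heatr1 by 0.93, Ddx21 by 0.92, Mybbp1a by 0.75, Nolc1 by 0.70 and Utp20 by 0.57. In Cebpa d/d cells Nop58 fell by 0.93, Wdr43 by 0.88, Ddx21 by 0.85, Nop14 by 0.79, Nop56 by 0.70, Heatr1 by 0.65, Tsr1 by 0.62, Nop2 by 0.61, Noc3l by 0.59 and Nolc1 by 0.51. Nucleolin, which did not pass at 3 hr, fell by 0.26 in control (adjusted p = 0.0444) and by 0.30 in Cebpa d/d cells (adjusted p = 0.0356). The Cebpa d/d count was 10 when replicate 1 or replicate 3 at 3 hr was left out, and at 72 hr it was 13 for replicate 2, 11 for replicate 3 and 14 for replicate 1, the array with the highest Cebpa of its genotype. With sex in the fit it was 13.

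The gene set peaked at 3 hr and the transcripts of dividing cells at 72 hr. The mean over the 40 genes lay between 8.10 and 8.25 in the control arrays at 0 hr, 8.55 and 8.93 at 3 hr, and 8.08 and 8.25 at 72 hr. In Cebpa d/d cells it lay between 8.04 and 8.17, then 8.47 and 8.78, then 8.16 and 8.27. The 3 hr arrays did not overlap those of the other times in either genotype. Mitosis genes such as Mki67, Top2a and Cdk1 had control array means between 6.53 and 6.90 at 0 hr, between 6.26 and 6.42 at 3 hr and between 8.21 and 8.38 at 72 hr, and 6.47 to 6.65, 6.35 to 6.68 and 7.74 to 8.69 in Cebpa d/d cells. At 72 hr 11 of 11 mitosis genes were higher than at 0 hr in each genotype, with medians of 1.66 and 1.77. At 3 hr 0 of 11 were higher, 2 were lower in control and 0 in Cebpa d/d cells. Of the 37 other growth genes of Myc, 8 in control and 5 in Cebpa d/d cells were higher at 72 hr than at 0 hr, in control among them the replication genes Mcm4, Mcm5 and Mcm7, the nucleotide kinases Nme1 and Nme2, and Ldha (named after their values were seen). Mitochondrial ribosomal proteins had 6 of 75 higher in control and 3 of 75 in Cebpa d/d cells at that time, or 8.0% and 4.0%, against 4.95% and 3.39% of all genes. The array means of that list did not overlap between 0 and 72 hr in either genotype. In control they were 8.23 to 8.435 at 0 hr and 8.46 to 8.558 at 72 hr. In Cebpa d/d cells they were 8.236 to 8.403 and 8.483 to 8.565. With replicate 1 of control at 0 hr left out the control counts were 8 growth genes and 10 mitochondrial ribosomal proteins, and without Cebpa d/d 72 hr replicate 1 the Cebpa d/d counts were 9 and 2.

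**Figure D4:**
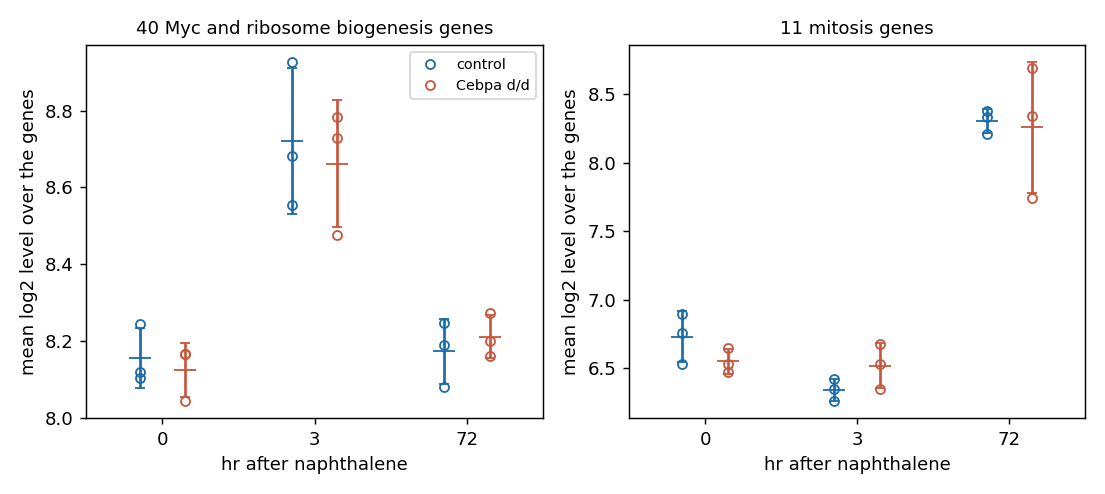
Mean log2 level over the 40 genes (left) and over 11 mitosis genes (right) in each array (circles), with the mean and SD of 3 arrays (bars), at 0, 3 and 72 hr in control (blue) and Cebpa d/d (red) cells. The left panel peaks at 3 hr, between 8.47 and 8.93, and the right panel at 72 hr, between 7.74 and 8.69.

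Cell markers also shifted between 3 and 72 hr. Of 10 ciliated cell genes 8 rose in control and 4 in Cebpa d/d cells, of 6 fibroblast genes 4 and 3, and of 6 macrophage genes 4 and 1. Without Cebpa d/d 72 hr replicate 1 the Cebpa d/d counts were 2, 3 and 2. How far these shifts enter the fall of the ribosome biogenesis genes was not tested.

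The genotypes were compared at each time and in their time courses. At 0 hr 0 of 40 genes differed between Cebpa d/d and control cells in limma, where 0.336% of all genes did. At 3 hr 0 of 40 differed (0.015% of all genes), and at 72 hr 0 of 40 (0.0702% of all genes). At an unadjusted p under 0.05 the numbers were 2, 2 and 1 of 40, without the share of all genes at that threshold. At 0 hr the smallest p belonged to Polr1c (-0.24), Nop2 (-0.32) and Nhp2 (-0.22), at 3 hr to Bysl (-0.36), Wdr12 (-0.36) and Polr1a (-0.13), and at 72 hr to Utp20 (0.20), Myc (-0.54) and Nop58 (0.26), each given as Cebpa d/d minus control. For Myc the 95% interval of the difference ran from -0.54 to 0.65 at 0 hr, from -0.57 to 0.62 at 3 hr and from -1.13 to 0.06 at 72 hr. These intervals leave room for differences in Myc of up to about 1.5-fold at 3 hr, so the genotypes were not shown to be alike.

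The change from 0 to 3 hr differed between genotypes for 0 of 40 genes, as for 0.0% of all genes. That from 0 to 72 hr differed for 0 of 40 (0.0953% of all genes), and that from 3 to 72 hr for 0 of 40 (0.01% of all genes). At an unadjusted p under 0.05 the numbers were 0, 0 and 1. Over the 40 genes the difference between the changes at 3 hr ran from -0.35 (Wdr12) to 0.32 (Nop2), and for Myc it was -0.03 with a 95% interval of -0.88 to 0.81. The smallest unadjusted p belonged to Nop2, Wdr12 and Polr1c, and for Polr1c the difference between the changes was 0.19 on the log2 scale. From 0 to 72 hr the smallest p belonged to Tsr1 (0.33), Nop58 (0.35) and Nop2 (0.30), and the Myc value was -0.59 with an interval of -1.44 to 0.25. From 3 to 72 hr it belonged to Noc3l (0.41), whose level at 72 hr was 7.08 to 7.12 in the control arrays and 7.31 to 7.32 in the Cebpa d/d arrays, then Bysl (0.45) and Utp20 (0.26). All 6 of these counts stayed at 0 under each of the 27 alternative fits. At 0 hr the cardiac list had 6 of 10 genes higher in Cebpa d/d than in control cells, and 5 of 10 with replicate 1 of control at 0 hr left out, so the 0 hr groups differed in that respect.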

How the data were processed

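Total RNA was measured on 18 mouse Affymetrix arrays. The deposited log2 values had been made by the authors with RMA, per the submitters' processing notes (version, build and filters: not given in the sources used here). They ran from 2.53 to 13.93, with array medians of 6.48 to 6.65. The number of arrays limits the precision, so genes that did not pass were not shown to be unchanged. Of 35557 probe sets, 21789 had 1 gene symbol, 1621 several and 12147 none; those with 1 were used, the highest mean where a gene had more than 1 (999 genes), which left 19938 genes. RefSeq (GRCm38.p6) held 19855 of them. limma 3.58.1 in R 4.3.3 fitted 6 group means to all arrays (12 residual plus 4.49 prior degrees of freedom), gave 12 contrasts and was tested on simulated data. SE is the standard error of the log2 difference. Counts at an unadjusted p under 0.05 are given without the share of all genes at that threshold and are not read as results. Values per array are given for Myc, all polymerase I genes and the 3 genes per role with the smallest adjusted p at 3 or 72 hr against 0 hr; per comparison up to 12 genes that passed are named, per pathway list up to 3 at 3 hr. Other genes were named after their values were seen, and so was the motif CACGCG searched. The gene set and all lists were chosen with earlier results of these data known. Alternatives left out each array or both that stood apart, or changed the groups in the fit, the replicate block, sex, probe sets, low genes, centring, weights or variance model.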

Additional observations from a re-analysis of the deposited data

How the results depend on the processing

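No call of the 40 genes changed direction under the 27 alternatives. Of the genes that passed, those that kept their call under all 27 were 2 of 19 in control (Myc and Gnl3) and 7 of 18 in Cebpa d/d cells from 0 to 3 hr, 0 of 3 and 0 of 2 from 0 to 72 hr, and 17 of 25 and 9 of 20 from 3 to 72 hr. Leaving out 1 array gave 10 to 25 (control) and 7 to 19 (Cebpa d/d) genes from 0 to 3 hr, 0 to 3 in either genotype from 0 to 72 hr, and 17 to 25 and 10 to 20 from 3 to 72 hr. With only the groups compared in the fit, control had 2 genes from 0 to 3 hr and 1 from 0 to 72 hr; such a fit has fewer arrays. With sex as a covariate the control count from 0 to 72 hr was 1 and the Cebpa d/d count from 3 to 72 hr was 13, and with array weights the former was 5; the cause was not tested. Same-numbered arrays varied together little (r from -0.29 to 0.20, over 0.1 in 7 of 45 pairs), and the replicate number was not treated as a pairing in the main fit. Such a check cannot exclude that same-numbered arrays were handled together. With the replicate number as a block the counts were 17, 3 and 23 in control and 17, 3 and 16 in Cebpa d/d cells, in the same order of comparisons. Between genotypes they were 0 in all. Signal over background was not examined, because no scanner files were used.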
